A study of Mus musculus with 3 samples.

Results

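The genes described here are 10 markers of alveolar type I (AT1) cells, the thin epithelial cells across which the lung exchanges gas, looked at in the chromatin of alveolar type II (AT2) cells. They are Hopx, Pdpn, Ager, Aqp5, Cav1, Cav2, Emp2, Clic5, Rtkn2 and Igfbp2, that is 10 of 21883 protein-coding genes of the GRCm38.p6 RefSeq table. Every peak with a base in the body of one of these genes, or within 20 kb of it, was taken. This gave 50 of the 31165 ETV5 peaks and 20 of the 15134 H3K4me3 peaks. AT2 cells came from C57BL/6 mice aged 10 to 12 weeks and were fixed for 11 min in 1% formaldehyde. There were 3 samples, an ETV5 immunoprecipitation, an H3K4me3 immunoprecipitation and an input, each as 1 library, and the peak lists of the first pair were used. The labels give no genetic change and no treatment, and they do not say how many mice were pooled. The question put to these lists was whether genes of the AT1 programme carry an active promoter mark and the factor ETV5 in AT2 cells.

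AT2 cells make surfactant and are also the progenitors that give rise to AT1 cells, losing surfactant genes and switching on the AT1 markers as they flatten. ETV5 is a transcription factor of the ETS family, whose members bind DNA at a GGAA core, and it acts downstream of FGF and ERK signalling. Trimethylation of lysine 4 on histone H3 (H3K4me3) sits at the start sites of active genes and of genes that are poised for use, so the mark alone does not give the level of transcription.

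The ETV5 list rests on 5715049 tags and the H3K4me3 list on 34907608. The fold of a peak is the authors' own value, its pileup of fragments over the background used by the peak caller. It is used here only to describe and rank peaks within a list, since the lists differ in depth, tag length and input. With 1 library per antibody there was no replicate and no test was possible. Intervals in brackets are exact 95% Poisson limits of a pileup or, for a share, exact Clopper-Pearson limits, and cover counting error only. In bulk chromatin, the share of cells that carry a mark and the amount of it per cell cannot be told apart. All 12 genes of a list of AT2 markers had H3K4me3 within 1 kb of a start, at folds of 21.8 to 60.9. The mark was called at the start of 2 of 8 endothelial, 0 of 3 lymphatic, 0 of 8 mesenchymal and 2 of 8 leukocyte markers. An ETV5 summit was at the start of 3 of 8, 1 of 3, 1 of 8 and 2 of 8 of these lists in the same order, among them Cdh5 (endothelial, fold 4.94), Prox1 (lymphatic, 6.41) and Col1a1 (mesenchymal, 5.40) without H3K4me3. The endothelial markers with H3K4me3 were Egfl7 at a fold of 15.5 and Cldn5 at 4.39, and the leukocyte markers were Cd14 at 41.7 and Spi1 at 3.99. In every list, a gene with no listed start was judged by both gene ends, so its peak may lie at either end. That held for Cdh5, Col1a1, Cd14 and Spi1. Starts were listed for 9 of 12 AT2, 5 of 8 endothelial, 2 of 3 lymphatic, 5 of 8 mesenchymal and 6 of 8 leukocyte markers. Over all protein-coding genes, H3K4me3 was at a start of 53.7% and ETV5 at a start of 54.2%. Cav1 and Cav2 are also expressed by endothelial and mesenchymal cells, Pdpn by lymphatic endothelium and mesothelium, and Aqp5 by airway cells. The part of other cells in the peaks below was not tested.

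Most of the AT1 markers carried both peaks at a start site. H3K4me3 lay within 1 kb of a start of 8 of the 10 genes, against 53.7% of all protein-coding genes, and an ETV5 summit lay within 1 kb of a start of the same 8, against 54.2%. Pdpn and Igfbp2 had neither peak called there at this depth. The ETV5 count depended on the strength asked for and on the starts used. With a fold of at least 10 it was 4 of 10, against 35.4% of all genes. With gene ends in place of listed starts it was 5 of 10 for ETV5 and 6 of 10 for H3K4me3, against 52.1% of all genes in each list, since peaks of Hopx and Clic5 and the ETV5 peak of Cav1 lie at starts inside the gene. Among all genes with H3K4me3 at a start, 92.7% also had an ETV5 summit there, against 9.59% of genes without it, so the pairing of the peaks at 8 of 8 marked AT1 genes lies near what marked genes show in general. Within the wider reach of 20 kb, 10 of 10 had an ETV5 peak (68.6% of all genes) and 9 of 10 had an H3K4me3 peak (66.0%), Pdpn being the exception.

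**Figure D1:**
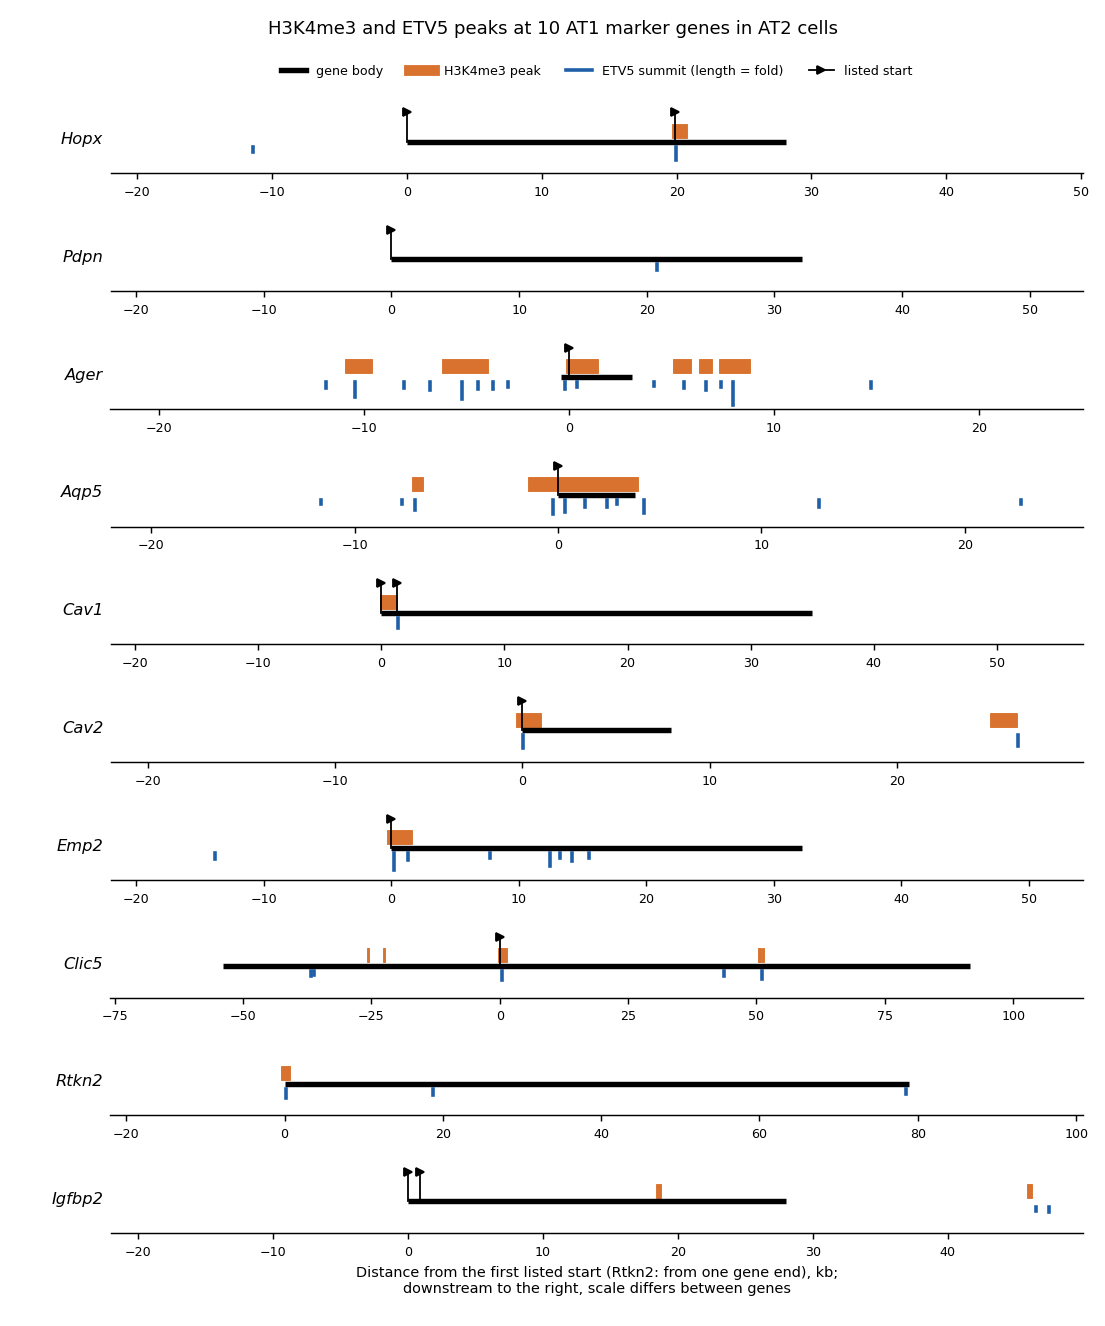
Map of the 10 genes, with distance from the first listed start in kb on the horizontal axis (from a gene end for Rtkn2) and a separate scale for each gene. Black bars are gene bodies, arrows listed starts, orange boxes H3K4me3 peaks and blue ticks ETV5 summits with a length in proportion to the fold (the longest, beside Ager, is 20.9); 8 genes have both peaks at a start, while Pdpn and Igfbp2 have none there.

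The promoter windows below run from 250 bases before to 50 bases after a listed start (300 bases, the start being base 251), taken from RefSeq on GRCm38.p6 and written 5′ to 3′ on the strand of the gene. They are shown because they differ in what was called over them: the downstream and the upstream start of Hopx, of which the downstream one alone had peaks; Ager, Aqp5 and Cav2, whose ETV5 summits fall inside the window; and Pdpn and the upstream start of Igfbp2, with no peak. The ETV5 summit at the downstream start of Cav1 also fell inside its window, which is not shown. Capitals mark each GGAA, or TTCC where the core is on the other strand.
Hopx, downstream start (chr5:77095218-77095517, minus strand): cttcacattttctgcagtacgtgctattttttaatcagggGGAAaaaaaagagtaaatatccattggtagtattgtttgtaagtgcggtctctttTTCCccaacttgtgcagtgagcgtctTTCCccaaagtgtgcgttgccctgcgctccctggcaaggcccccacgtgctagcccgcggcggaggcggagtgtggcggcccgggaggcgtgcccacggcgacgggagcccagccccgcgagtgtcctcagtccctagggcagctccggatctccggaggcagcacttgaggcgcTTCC
Hopx, upstream start (chr5:77115074-77115373, minus strand): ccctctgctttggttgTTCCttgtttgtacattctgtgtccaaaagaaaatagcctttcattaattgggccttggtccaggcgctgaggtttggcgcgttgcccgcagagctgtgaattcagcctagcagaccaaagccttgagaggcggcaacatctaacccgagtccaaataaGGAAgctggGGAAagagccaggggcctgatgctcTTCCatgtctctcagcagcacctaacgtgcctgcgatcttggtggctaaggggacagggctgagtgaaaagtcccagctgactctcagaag
Ager (chr17:34597600-34597899, plus strand): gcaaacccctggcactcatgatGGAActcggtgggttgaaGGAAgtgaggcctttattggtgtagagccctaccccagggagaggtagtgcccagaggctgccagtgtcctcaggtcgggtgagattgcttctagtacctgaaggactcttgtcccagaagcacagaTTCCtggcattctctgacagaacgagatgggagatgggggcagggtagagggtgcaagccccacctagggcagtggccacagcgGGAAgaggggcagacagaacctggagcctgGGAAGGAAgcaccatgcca
Aqp5 (chr15:99590778-99591077, plus strand): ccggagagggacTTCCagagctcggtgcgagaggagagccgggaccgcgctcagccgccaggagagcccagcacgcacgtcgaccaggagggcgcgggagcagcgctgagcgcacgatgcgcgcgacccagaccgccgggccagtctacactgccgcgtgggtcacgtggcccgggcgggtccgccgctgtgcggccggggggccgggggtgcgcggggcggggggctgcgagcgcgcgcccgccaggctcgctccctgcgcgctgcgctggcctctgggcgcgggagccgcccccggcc
Cav2 (chr6:17280935-17281234, plus strand): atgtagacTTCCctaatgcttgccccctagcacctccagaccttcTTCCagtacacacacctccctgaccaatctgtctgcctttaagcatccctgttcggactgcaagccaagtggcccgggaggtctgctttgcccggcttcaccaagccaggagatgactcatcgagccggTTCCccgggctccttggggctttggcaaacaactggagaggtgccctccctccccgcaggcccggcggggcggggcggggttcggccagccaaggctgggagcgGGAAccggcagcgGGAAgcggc
Pdpn (chr4:143299515-143299814, minus strand): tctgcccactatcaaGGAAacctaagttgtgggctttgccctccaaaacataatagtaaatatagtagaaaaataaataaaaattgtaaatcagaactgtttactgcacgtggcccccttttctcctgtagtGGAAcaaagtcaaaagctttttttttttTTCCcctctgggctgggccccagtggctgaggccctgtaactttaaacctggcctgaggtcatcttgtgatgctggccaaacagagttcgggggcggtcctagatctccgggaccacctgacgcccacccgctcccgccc
Igfbp2, upstream start (chr1:72824230-72824529, plus strand): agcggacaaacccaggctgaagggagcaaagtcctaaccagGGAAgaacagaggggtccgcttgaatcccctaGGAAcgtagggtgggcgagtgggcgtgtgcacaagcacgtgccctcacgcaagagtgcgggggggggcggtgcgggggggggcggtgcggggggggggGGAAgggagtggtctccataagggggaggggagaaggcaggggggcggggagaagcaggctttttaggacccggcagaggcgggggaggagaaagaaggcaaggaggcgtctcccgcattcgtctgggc

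All of the 12 windows available for 9 of the genes held GGAA, but so did 95.7% of the 21262 windows of protein-coding genes, so the core alone sets none apart. Rtkn2 had no entry in the table. The longer ETS site CCGGAA was in 0 of the 12 windows, against 18.7% of all windows. Of the 12, it was in 0 of the 8 with H3K4me3 within 1 kb, against 30.0% of all such windows, and in 0 of the 4 without it, against 5.63%. CCGGAAGT was also in 0 of 12, against 5.15% of all. GGAATG, the site of TEAD factors, which contains the GGAA core, was in 0 of 12, against 13.6%. GGAAGT, a sequence added to the search after these windows had been read, was in 4 of 12 (Ager, Aqp5, Cav2 and Emp2), against 24.8%. Both strands were searched in each case. Distances are given where the ETV5 summit of a start fell inside the window, which it did not at Hopx, Emp2 and Clic5. In Ager the ETV5 summit was base 34 of the window, and the centre of the GGAAGT that starts at base 41 lay 9.5 bases from it. Another GGAA, at base 23, lay as far away on the other side. In Aqp5 the summit was base 6, and the ACTTCC that starts at base 11, which is GGAAGT on the other strand, lay 7.5 bases from it. In Cav2 the summit was base 267, 13.5 bases from the GGAA at base 279, while its GGAAGT was 257.5 bases away. At the downstream start of Cav1 the nearest GGAA was 121.5 bases from the summit. These are matches of letters and not shown to be sites.

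Emp2, a tetraspan membrane protein of epithelial surfaces, had the highest folds of the 10 at its start in both lists. Its gene (chr16:10281749-10313968, minus strand) carried an H3K4me3 peak at chr16:10312355-10314321 with a fold of 56.1 and a pileup of 357 [321 to 396]. That fold was rank 547 of the 15134 H3K4me3 peaks. The ETV5 peak at chr16:10313273-10314148 had a fold of 15.2 and a pileup of 30 [20.2 to 42.8], with its summit 231 bp inside the gene. Emp2 also had ETV5 well inside the gene: of its 8 ETV5 peaks, 7 lay in the gene body, and 5 of these were between 7.78 and 15.5 kb past the start and overlapped no H3K4me3. The strongest of them, chr16:10301154-10301794, had a fold of 11.9 and a pileup of 23 [14.6 to 34.5], and the other 4 had folds of 4.07 to 7.26. The remaining peaks were one at 1349 bp past the start (fold 6.22, within the H3K4me3 peak) and one 13799 bp upstream (fold 4.90).

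Aqp5, the water channel of the apical AT1 surface, had the widest H3K4me3 peak of the 10 genes. It ran over 5399 bp (chr15:99589571-99594969) and covered the whole gene (chr15:99591028-99594829, plus strand), with a fold of 45.8 and a pileup of 291 [259 to 326]. Its width was rank 52 of 15134, while the start peaks of the other 7 marked genes were 1074 to 1967 bp wide. Broad H3K4me3 was also seen at the AT2 markers, where the median of the widest start peak was 5925.5 bp, against 1447 bp over all genes with one. In a second list of 20 AT1 markers the median was 1914.5 bp, and Lmo7 (4626 bp), Vegfa (4145 bp), Cldn18 (3508 bp) and Gprc5a (3180 bp) were the widest. Inside the Aqp5 peak lay 5 ETV5 peaks, with folds of 13.1, 11.1, 6.50, 6.29 and 4.01 in order along the gene. The first had its summit 245 bp before the start and a pileup of 25 [16.2 to 36.9]. A further ETV5 peak (chr15:99594995-99595485) began 25 bases beyond the edge of the H3K4me3 peak, with a fold of 11.9 and a pileup of 28 [18.6 to 40.5]. In all, 11 ETV5 peaks were in reach of Aqp5, but 5 of them were nearer to the start of Aqp2 or Aqp6, the neighbouring water channel genes. The highest of these 5 was a 1340-bp peak with a fold of 8.94 that overlapped an H3K4me3 peak with a fold of 5.18.

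Ager encodes RAGE, a receptor on the basolateral AT1 membrane, and its own start had modest values among strong neighbours. The H3K4me3 peak at the start (chr17:34597678-34599271) had a fold of 15.6 and a pileup of 112 [92.2 to 135]. The ETV5 peak (chr17:34597048-34597835) had a fold of 6.68 and a pileup of 14 [7.65 to 23.5], the lowest start fold of the 8 genes, with its summit 217 bp before the start. A second ETV5 peak, 377 bp past the start, had a fold of 4.68. Ager lies in a dense stretch of genes (its body is chr17:34597460-34600937, plus strand), with 16 ETV5 and 6 H3K4me3 peaks in reach. Of these, 14 ETV5 peaks were nearer to a start of Gpsm3, Pbx2, Agpat1 or Egfl8, or to a gene end of Rnf5, which had no listed start. The highest ETV5 fold in reach, 20.9, had its summit 12 bp from the start of Agpat1, and the highest H3K4me3 fold, 45.5, was at Pbx2. Counting only peaks nearest to Ager lowered its highest ETV5 fold from 20.9 to 6.68 and its highest H3K4me3 fold from 45.5 to 15.6.

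Cav1 and Cav2 encode caveolins, the scaffold proteins of the membrane pits called caveolae, and their bodies lie 17205 bp apart. Cav2 (chr6:17281185-17289130, plus strand) had H3K4me3 at chr6:17280821-17282157 with a fold of 24.2 and a pileup of 153 [130 to 179]. Its ETV5 peak (chr6:17281004-17281545) lay wholly inside, with a fold of 11.9, a pileup of 26 [17.0 to 38.1] and a summit 16 bp past the start. Cav1 (chr6:17306335-17341328, plus strand) had far less of the mark, with a fold of 6.59 and a pileup of 41 [29.4 to 55.6] over chr6:17306189-17307592. The H3K4me3 pileup intervals of Cav1 and Cav2 did not overlap, while those of ETV5 did, since the Cav1 ETV5 peak had a fold of 9.64 and a pileup of 18 [10.7 to 28.4]. Cav1 has 2 listed starts. The H3K4me3 peak covered the upstream one and ended 48 bp before the downstream one, whereas the ETV5 summit lay 25 bp past the downstream start and 1330 bp from the upstream one. The ETV5 peak (chr6:17307349-17307965) overlapped the H3K4me3 peak by 244 bp, with its summit outside it. The Cav1 peaks are also within reach of Cav2 and are counted once in the totals.

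Hopx, a homeodomain protein that does not itself bind DNA and a widely used AT1 marker, had its peaks at only one of its 2 listed starts. At the downstream start, the H3K4me3 peak (chr5:77094364-77095437) had a fold of 21.2 and a pileup of 134 [112 to 159]. The ETV5 peak there (chr5:77094665-77095430) had a fold of 12.5 and a pileup of 27 [17.8 to 39.3], with its summit 88 bp past the start. At the upstream start, the end of the gene body (chr5:77086986-77115123, minus strand), no peak was called within 1 kb, and the nearest H3K4me3 edge was 19686 bp away. The other ETV5 peak of Hopx was 11463 bp upstream of that start, with a fold of 4.90 and no H3K4me3.

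Clic5, an intracellular chloride channel protein that joins the membrane to actin, had both peaks at its listed start, each with a fold below the median of all genes with one. The H3K4me3 peak (chr17:44188166-44189966) had a fold of 33.1 and a pileup of 213 [185 to 244], the third highest of the 8 genes. The ETV5 peak (chr17:44188434-44189128) had a fold of 8.62 and a pileup of 13 [6.92 to 22.2]. That start lies inside the gene body (chr17:44134762-44280169, plus strand), and 4 more ETV5 and 4 more H3K4me3 peaks were spread along the gene. Among these, an ETV5 peak of 1273 bp, 51179 bp past the start, had a fold of 7.33 and overlapped a pair of H3K4me3 peaks with folds of 4.38 and 3.36. The other H3K4me3 peaks were 25588 and 22505 bp upstream of the start, with folds of 4.86 and 3.92, and overlapped no ETV5.

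Rtkn2, a member of the rhotekin family, was judged by its gene ends (chr10:67979566-68058429). At one end H3K4me3 (chr10:67979067-67980201) had a fold of 19.6 and a pileup of 124 [103 to 148], and ETV5 (chr10:67979198-67980088) had a fold of 8.15 and a pileup of 19 [11.4 to 29.7]. ETV5 peaks without H3K4me3 lay inside the gene (fold 6.01) and 379 bp from the other end (fold 4.48).

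**Figure D2:**
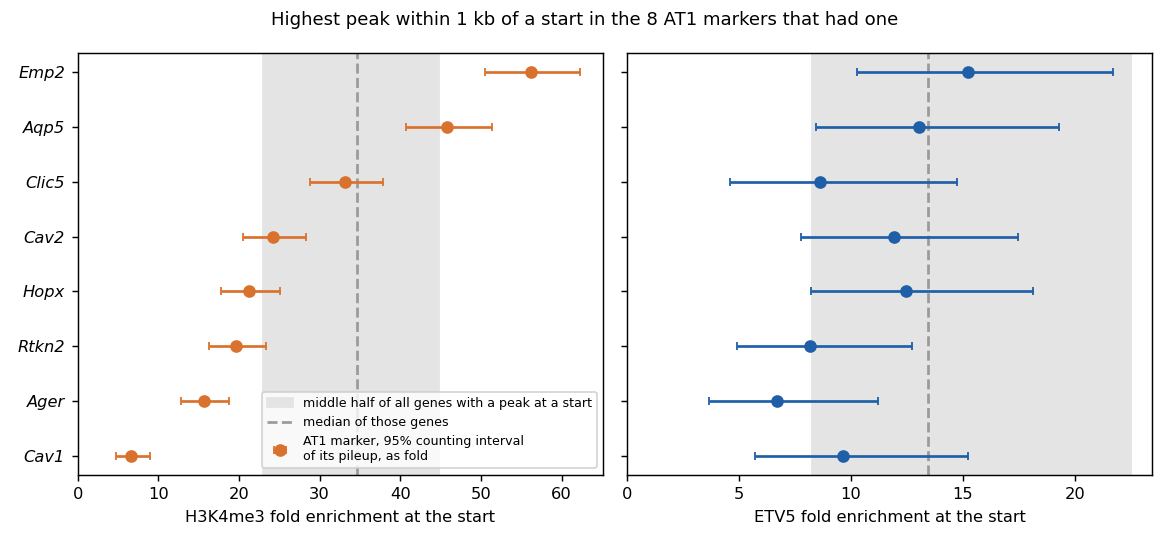
Fold of the highest H3K4me3 peak (left) and ETV5 peak (right) within 1 kb of a start of each of the 8 genes that had one, with bars for the exact 95% Poisson interval of the pileup scaled to the fold, and with the median (dashed line) and quartile range (grey) over all genes with such a peak. Emp2 leads both lists, and the ETV5 intervals overlap for all pairs of the 8 genes.

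Igfbp2, a secreted binding protein for insulin-like growth factors that marks the most mature AT1 cells, had no peak within 1 kb of either of its 2 starts. Inside the gene (chr1:72824480-72852474, plus strand) was 1 H3K4me3 peak, chr1:72842860-72843250, with a fold of 4.94 and a pileup of 35 [24.4 to 48.7], 17706 bp from the nearer start. Its other peaks in reach were an H3K4me3 peak with a fold of 4.53 and ETV5 peaks with folds of 3.89 and 5.34, all nearer to the start of Igfbp5, and the nearest ETV5 summit was 45641 bp from an Igfbp2 start. Pdpn encodes podoplanin, the mucin-type membrane protein once known as T1α, and had 1 peak in all. This was an ETV5 peak inside the gene (chr4:143278601-143278803; the body is chr4:143267409-143299564, minus strand), with a fold of 5.54 and a pileup of 8 [3.45 to 15.8], 20825 bp past the start. The nearest H3K4me3 peak to its start was 86315 bp away. Neither gene thus showed the paired start peaks of the other 8 at this depth.

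The spread among the 8 marked starts is given for each list on its own, since pileups of 41 to 357 for H3K4me3 and 13 to 30 for ETV5 resolve differences unequally. H3K4me3 start folds ran from 6.59 (Cav1) to 56.1 (Emp2), and the pileup intervals were separate for 21 of 28 pairs of genes. ETV5 start folds ran from 6.68 (Ager) to 15.2 (Emp2), and the intervals overlapped for 28 of 28 pairs, so the order of the genes by ETV5 is not resolved at this depth. Overlapping intervals do not show equal levels. Both medians were below those of all genes with such a peak: 22.7 against 34.7 for H3K4me3 and 10.8 against 13.4 for ETV5. Only Emp2 exceeded the median ETV5 fold, and only Emp2 and Aqp5 exceeded the median H3K4me3 fold. The median width of the start peak, 1499 bp, was close to the 1447 bp of all genes with one.

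**Figure D3:**
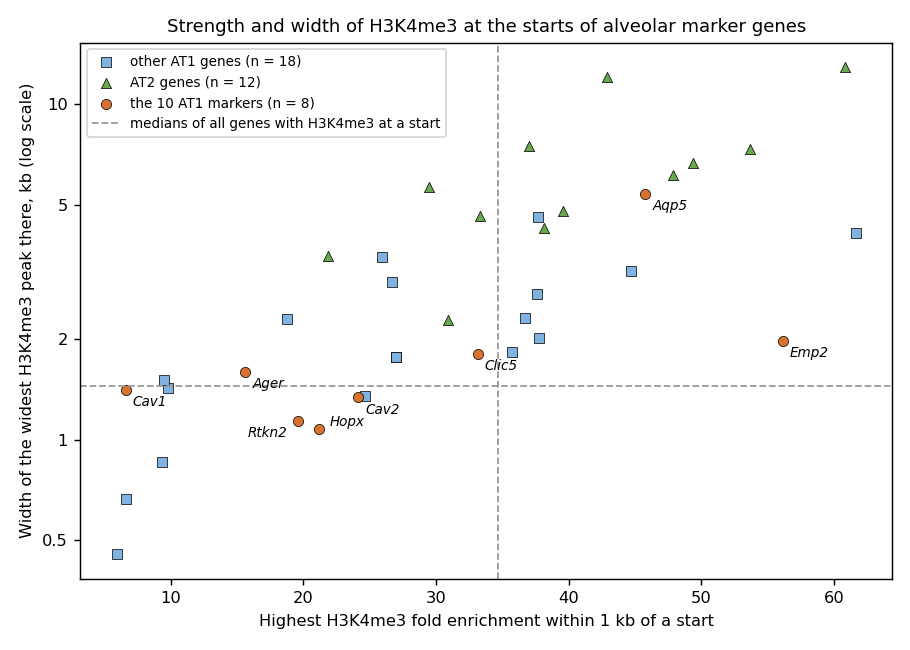
Width in kb on a log axis against fold of the H3K4me3 peak at the start of the 8 AT1 markers that had one (orange), of 18 genes of a second AT1 list (squares) and of 12 AT2 markers (triangles), with dashed lines at the medians of all genes with such a peak. Genes with no listed start were judged by both gene ends. Aqp5, at 5399 bp and a fold of 45.8, lies apart from the other 7 AT1 markers, which are 1074 to 1967 bp wide.

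ETV5 peaks of these genes that lay in marked chromatin had higher folds than the others, a difference that was not tested. The same split was not computed over all ETV5 peaks, so it is not shown to be particular to these genes. Of the 50 ETV5 peaks, 23 overlapped an H3K4me3 peak (46.0% [31.8 to 60.7]), against 48.9% of all ETV5 peaks. The median fold was 8.15 for those 23 and 4.90 for the 27 that did not overlap. Of the 20 H3K4me3 peaks, 16 overlapped ETV5, against 84.2% of all H3K4me3 peaks. Both counts lie near the background. The reach of Ager or Aqp5 held 27 of the 50 ETV5 peaks, and 23 were at the other 8 genes. In all, 29 ETV5 peaks were nearest to a start of one of the 10 genes and 21 to another gene. For H3K4me3 these numbers were 13 and 7. At the limit of 20 kb, an ETV5 peak near Igfbp2 with a fold of 5.34 lay 19322 bp from the gene and was taken, and one with a fold of 6.11 lay 21117 bp from it and was not. For Aqp5, the same held for ETV5 peaks at 18893 bp (fold 4.06) and 20357 bp (fold 8.68).

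The base composition of the promoter windows varied widely. Windows of all genes with H3K4me3 within 1 kb held a median of 22 CG dinucleotides (quartiles 15 and 30), against 4 (2 and 8) without it. Aqp5 had 46 CG and 79.7% G and C, while the window of Ager, which also had H3K4me3, had 4 CG. Hopx had 21 CG at its marked downstream start and 8 at its unmarked upstream start. Pdpn had 7. The Igfbp2 windows had 18 and 14 CG without H3K4me3 called there, within or close to the range of marked windows. Cav2, Emp2, Clic5 and the downstream start of Cav1 each had 16, and the upstream start of Cav1 had 13.

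**Figure D4:**
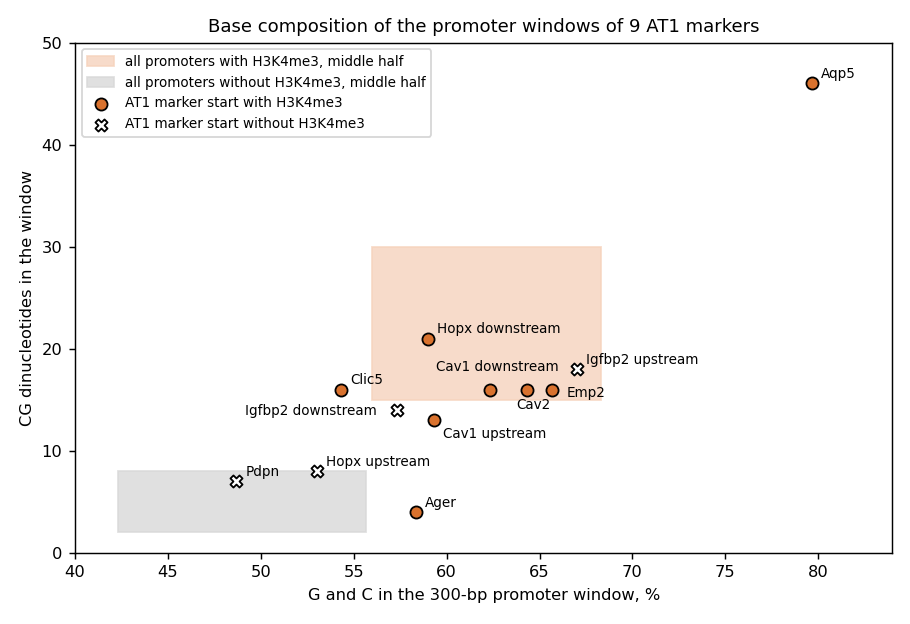
CG dinucleotides in each 300-base promoter window of 9 AT1 markers against its share of G and C in percent, with shaded boxes for the quartile range of all promoters with and without H3K4me3. Circles have H3K4me3 within 1 kb and crosses do not: Aqp5 is highest with 46 CG, Ager has 4 CG with the mark, and both Igfbp2 windows (18 and 14 CG) lack it.

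The second list of 20 AT1 markers was also mostly marked. H3K4me3 was at a start of 18 of 20, against 53.7% of all protein-coding genes, and ETV5 at 18 of 20, against 54.2%. Both were at 16, so 16 of the 18 with H3K4me3 also had ETV5, against 92.7% of all marked genes. The median start fold was 26.8 for H3K4me3 and 8.29 for ETV5, against 34.7 and 13.4 over all genes with such a peak. The highest ETV5 start folds were 14.6 at Icam1, an adhesion receptor, 14.6 at Ndnf, a secreted neurotrophic factor, 12.9 at Lmo7, an actin-linked protein, and 12.8 at Gprc5a, an orphan receptor. Sema3e, a secreted guidance protein, and Tspan8, a tetraspanin, had H3K4me3 (folds 6.59 and 9.77) and no ETV5 summit at a start. Col4a3 and Col4a4, the collagen chains of the alveolar basement membrane, are neighbours and share the same start peaks, which count for both genes. A start was listed for 15 of the 20. The others, among them Ndnf, Gprc5a and Col4a3, were judged by both gene ends, so their peaks may lie at either end.

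The AT2 markers had higher median start folds than the AT1 markers in both lists, but not a higher share of starts with ETV5. H3K4me3 was at 12 of 12 AT2 starts and ETV5 at 9 of 12, against 8 of 10 AT1 starts for each. Over all protein-coding genes the shares were 53.7% for H3K4me3 and 54.2% for ETV5. Among genes with the peak, the median H3K4me3 fold was 38.9 for the 12 AT2 markers and 22.7 for the 8 AT1 markers. The median ETV5 fold was 16.3 for the 9 AT2 markers and 10.8 for the 8 AT1 markers. The highest ETV5 start folds were 117 at Sftpb (surfactant protein B), 32.9 at Nkx2-1 (the lung lineage factor), 22.6 at Abca3 (the lamellar body lipid transporter) and 18.3 at Sftpa1 (surfactant protein A). Lyz2, Lamp3 and Sftpd had H3K4me3 but no ETV5 summit there. Both peaks were at 3 of 7 airway markers, against 10895 of 21883 protein-coding genes. These were Ccno and Foxj1, regulators of multiciliated cells, with ETV5 folds of 34.0 and 11.4, and Cfap126, a ciliary protein, with 27.3. Their H3K4me3 folds, 17.4, 19.8 and 8.31 in the same order, were below the median of 34.7 over all genes with such a peak. Among basal cell markers, both were at 2 of 6, the integrin genes Itga6 (ETV5 fold 13.4) and Itgb4 (8.64), while Ngfr had ETV5 alone (7.10). The H3K4me3 fold was 31.4 at Itga6 but only 3.61 at Itgb4, where the peak was 298 bp wide. The starts of Krt5, Krt14 and Trp63 had neither. A start was listed for 9 of 12 AT2, 3 of 7 airway and 3 of 6 basal markers. The others, among them Sftpd, Foxj1, Itga6, Itgb4 and Trp63, were judged by both gene ends, so a peak may lie at either end. These lists were not tested against each other.

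**Figure D5:**
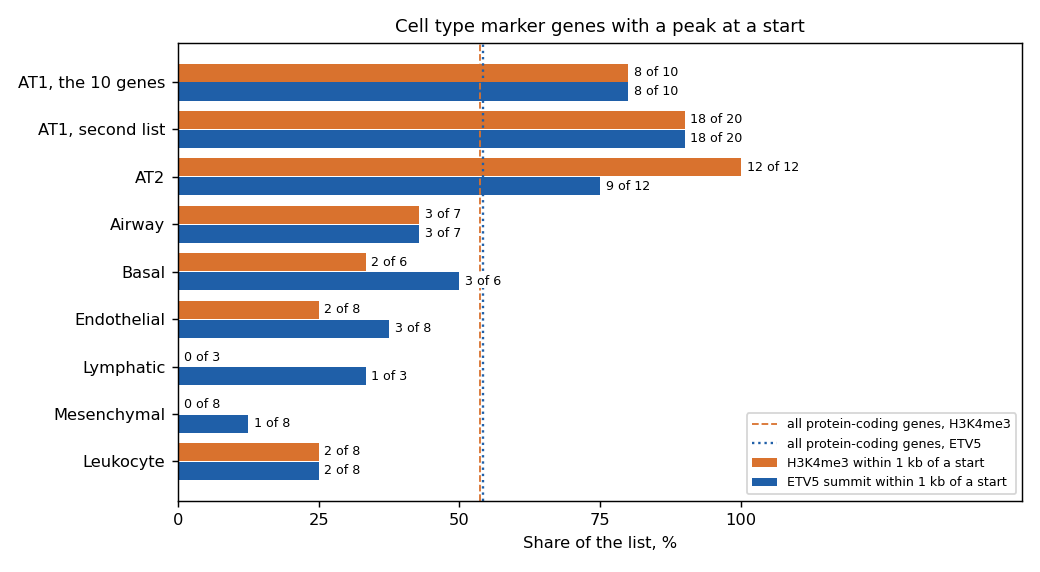
Share in percent of each list of cell type markers with H3K4me3 (orange) and with an ETV5 summit (blue) within 1 kb of a start. Genes with no listed start were judged by both gene ends. Counts stand beside the bars, and vertical lines are the shares of all protein-coding genes. The 10 AT1 markers stand at 8 of 10 for both, above those lines, while the lists of airway, basal, endothelial, lymphatic, mesenchymal and leukocyte markers stand below them.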

How the data were processed

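Peaks of 1 ETV5 and 1 H3K4me3 library from AT2 cells were used. They were called per library with MACS2 2.1.0.20150420 at a q-value threshold of 0.05, per the file headers and the submitters' processing notes. For the aligner, the sources used here give no name. Each peak's pileup signal, fold enrichment ratio, −log10 p-value and −log10 q-value were used as the authors deposited them. The pileup is the number of fragments over the summit, and the fold compares it with the background used by the peak caller. For the H3K4me3 start peaks of Hopx, Aqp5, Cav1, Cav2, Emp2 and Rtkn2 the deposited values imply the same background. Those folds thus hold no correction particular to the place. Per the file headers the ETV5 list came from 5715049 tags of 75 bp against 27495486 input tags, and the other list from 34907608 tags (50 bp long) with 44758677 in its input. The input of the ETV5 list carries another name than the input sample in the labels. The labels name build mm9, but the coordinates are those of GRCm38: within 1 kb of a protein-coding start lay 73.2% of H3K4me3 summits by the GRCm38.p6 RefSeq table.

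From these values, peaks were assigned to genes and starts with Python 3.11.15, pandas 2.3.3, numpy 2.4.6 and scipy 1.17.1, and the assignment was tested on simulated data and checked with bedtools 2.31.1 (50 and 20 peaks in both). H3K4me3 counted at a start when any base lay within 1 kb of it, and ETV5 when its summit did. Starts came from the RefSeq promoter table for 17491 genes and from both gene ends for the other 4392. Overlap meant at least 1 bp, and the 31156 ETV5 peaks on assembled chromosomes were its base. Figures were drawn with matplotlib 3.10.9. Named are the 10 genes with their peaks, genes whose starts are nearer to those peaks, up to 4 genes of each epithelial list with the highest ETV5 fold and up to 4 with H3K4me3 alone, and up to 2 of each other list with H3K4me3. Other genes named for having ETV5 alone, wide H3K4me3 or no peak at a start were chosen after their values were seen. The 10 genes and all lists were chosen with earlier results of these data known. Alternatives were other distances, stricter thresholds, other overlap rules, nearest-start assignment and, added after the data were seen, gene ends in place of listed starts and the GGAAGT search.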

Additional observations from a re-analysis of the deposited data

How the results depend on the processing

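The 50 ETV5 peaks became 25 with gene bodies only, 28 within 1 kb, 78 within 50 kb, 29 nearest to a start of these genes, 16 at a −log10 q-value of at least 10 and 10 at a fold of at least 10. The 20 H3K4me3 peaks became 13 with gene bodies only, 13 within 1 kb, 13 by nearest start and 11 at a fold of at least 10. The 23 of 50 ETV5 peaks overlapping H3K4me3 became 14 of 25 with gene bodies only, 15 of 28 within 1 kb and 15 of 29 by nearest start. They became 13 of 16 at the stricter q-value and 8 of 10 at the fold of 10, so the share rose as weaker peaks were left out. The share of all ETV5 peaks that overlap at these settings was not computed. At a fold of at least 10, 5 of 10 genes kept an ETV5 peak in reach. The share of all genes at that fold in reach was not computed, so the 5 cannot be called high or low. At a start, 4 of 10 had one, against 35.4% of all genes. With gene ends in place of listed starts, an alternative chosen after seeing the data, ETV5 was at the start of 5 genes and H3K4me3 of 6: Hopx and Clic5 lost both and Cav1 lost ETV5. The median of the highest ETV5 fold per gene, 10.8, became 9.64 by nearest start and 11.9 within 5 kb, and that of H3K4me3, 24.2, became 21.2 by nearest start. Ager moved from 20.9 to 6.68 for ETV5 and from 45.5 to 15.6 for H3K4me3 by nearest start. Igfbp2 had no ETV5 value by nearest start or within 5 kb, so those ETV5 medians cover 9 genes and not 10. Within 5 kb the ETV5 value of every other gene stayed the same. Of 58 alternative counts and medians, 37 stayed within 1.5 times the count or close to the median reported. Of 36 values of single genes, 34 did. The missing ETV5 values of Igfbp2 are not among the 36.

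No paired analysis was possible because each antibody has 1 library and nothing links the libraries by number. At 5715049 tags the ETV5 list is the shallower, and a start with no peak called is not shown to lack ETV5.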
